A study of Mus musculus with 12 samples.

Results

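The 10 genes described here carry the LIF, CNTF and gp130-STAT3 signal: the cytokines Lif, Cntf and Clcf1, the receptor chains Il6st (gp130), Lifr, Osmr and Cntfr, the kinase Jak1, the transcription factor Stat3 and the feedback inhibitor Socs3. They were taken by Entrez ID from the 27179 gene IDs of each library, and all 10 were found. Whole mouse retina was sequenced from controls and from mice with a glial deletion of Abca1, a transporter that exports cholesterol and phospholipids from cells. The 4 groups were control and KO at 3 months and control and KO at 12 months, with 3 libraries each. The sources used here do not give the strain, the sex, the promoter that drives the deletion, any allele shared by the controls, or whether each library is a different animal. The p-values therefore measure only the spread between these libraries, which may be technical.

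LIF binds LIFR, which then pairs with gp130. CNTF and CLCF1 first bind CNTFR, and oncostatin M, a relative of LIF, signals through OSMR with gp130. The joined receptors activate JAK kinases, chiefly JAK1, which phosphorylate STAT3. STAT3 then switches on target genes, among them Socs3, whose protein binds gp130 and JAK and shuts the signal down. In the retina, LIF is known as a cytokine made by Müller glia when photoreceptors are injured, and as a signal that protects photoreceptors and raises Edn2 and Gfap. Activation of STAT3 occurs by phosphorylation, which RNA levels do not show.

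In these libraries the ligand Lif stood about 2.5-fold higher in 12-month KO retina than in 12-month control retina, with no overlap between libraries, but its adjusted p missed the threshold of 0.05 in edgeR. Its receptor chains Lifr and Il6st and the feedback gene Socs3 lay near their control levels. Stat3 was 1.12-fold higher and was not called. With age, Lif and Jak1 rose in KO retina. Each call was lost without any 1 of 5 libraries. In control retina edgeR did not call Jak1, though its log2 difference was alike, 0.27 against 0.30 in KO retina. Among other genes tied to the pathway, Edn2 and Serpina3n rose in 12-month KO retina.

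Promoter sequence is shown for the ligand with the largest difference and for the feedback gene that STAT3 is known to drive. Both stretches come from RefSeq promoter windows on GRCm38.p6, which run from 250 bases before a gene's start to 50 after it, and are cut where an exon of the gene begins in GENCODE M21. The Lif stretch is chr11:4257318-4257556 on the plus strand (239 bases), and the Socs3 stretch is chr11:117969452-117969616 on the minus strand (165 bases). Capitals mark a match to TTCNNNGAA, the core letters bound by STAT proteins, where N is any base; the motif reads the same on both strands.
Lif: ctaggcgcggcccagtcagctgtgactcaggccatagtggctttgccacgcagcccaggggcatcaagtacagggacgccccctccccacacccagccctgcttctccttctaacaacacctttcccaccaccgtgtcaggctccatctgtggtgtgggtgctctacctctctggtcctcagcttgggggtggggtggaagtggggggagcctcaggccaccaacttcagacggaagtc
Socs3: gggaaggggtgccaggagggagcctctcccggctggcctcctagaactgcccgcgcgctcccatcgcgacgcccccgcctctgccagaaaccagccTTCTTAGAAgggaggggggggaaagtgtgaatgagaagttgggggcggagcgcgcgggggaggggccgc
The Socs3 match, TTCTTAGAA, lies at chr11:117969512-117969520, and its first base is 154 bases before the start on which that RefSeq window is placed. This start lies inside the RefSeq gene span of Socs3 given below, which begins further upstream, so the match is within that span. Entries were found for 9 of the 10 members (15 windows in all); Clcf1 had no entry. Socs3 was the 1 member of these 9 with the motif anywhere in its windows, and 2726 of all 32851 windows of 300 bases (8.3%) held it. A match of letters is a description and shows no binding.

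**Figure D1:**
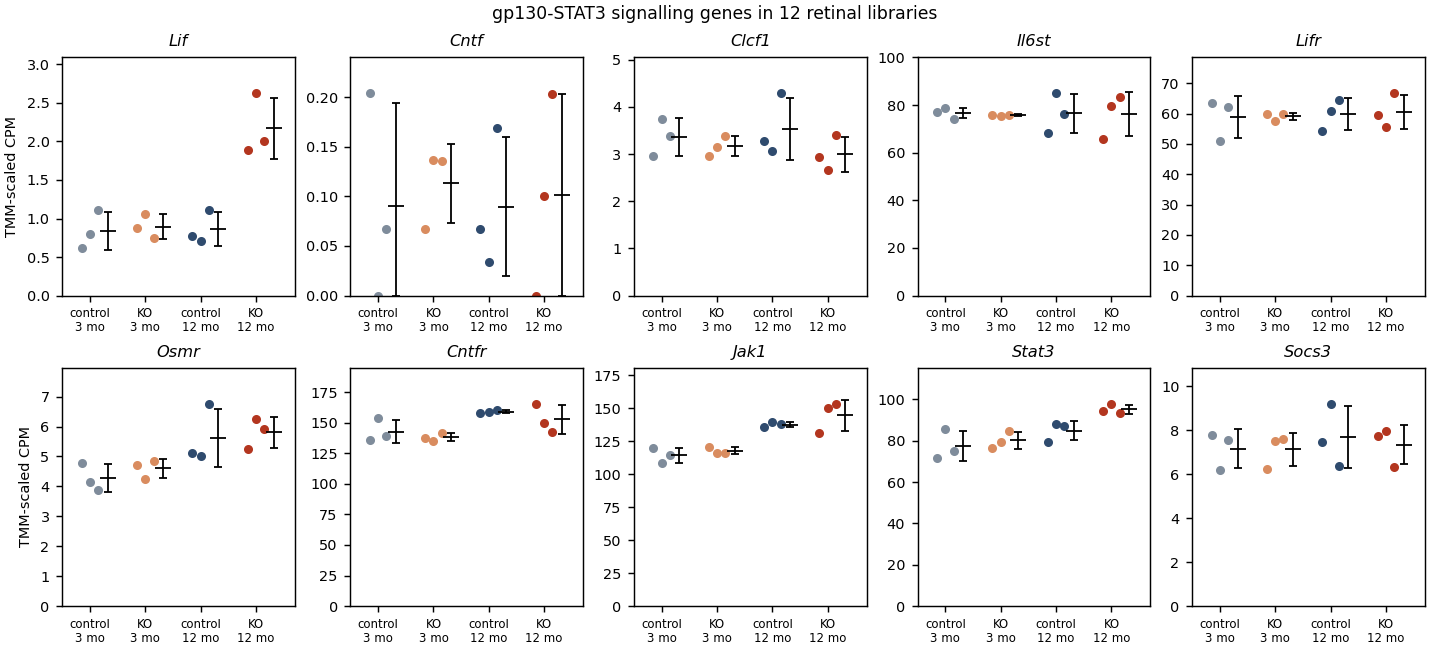
Level of each of the 10 genes in every library, in CPM after TMM scaling (y axis, a separate linear scale from 0 in each panel), for control and KO retina at 3 and 12 months. Points are the 3 libraries of a group and the bars beside them give mean ± SD, with the lower arm stopped at 0 for Cntf; the 3 Lif points of 12-month KO retina (1.88 to 2.62) lie above the other 9 (0.612 to 1.11).

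Levels below are counts per 1000000 counts of the library (CPM), scaled by TMM, a factor that corrects for the makeup of each library. Differences are log2 fold changes from edgeR's quasi-likelihood model on all 12 libraries, with p-values adjusted by Benjamini-Hochberg over 16475 tested genes. A gene is said to have risen or fallen, or to be called, only where that adjusted p is below 0.05. Because whole retina was sequenced, fewer cells of a type and less RNA per cell cannot be told apart. Of the 10 members, 9 passed the filter on low counts and Cntf did not.

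Libraries were alike in depth, from 29027099 to 30438026 counts. Abca1, the targeted gene (Entrez 11303), was not lower in the libraries labelled KO: it averaged 22.7 ± 3.34 CPM in control and 26.3 ± 1.78 in KO at 3 months, and 30.8 ± 2.66 and 36.3 ± 7.91 at 12 months (SD, n = 3 each), with edgeR adjusted p = 0.70 and 0.65. The label KO is used throughout, and every direction below is drawn from it. Control replicate 2 at 3 months and KO replicate 1 at 12 months stood apart from their groups, with chi-square per degree of freedom of 39.7 to 40.7 and 20.5 to 23.6 against their partners; the other pairs gave 3.45 to 8.91. Lens markers summed to 2982 CPM in that control library and to 30.3 and 116 in its partners, against 7.20 to 18.7 in the other 3 groups. Skeletal muscle markers summed to 80.7 to 91.6 CPM in the 3-month controls, against 5.50 to 10.0 elsewhere. This content of other tissues and the 3-month control group cannot be told apart. The Müller glia markers, whose cells are the main glia of the retina, were all detected in every group and summed to 4456 to 5041 CPM. Values without each library are given where they change a call.

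Lif encodes the secreted ligand (Entrez 16878, chr11:4257568-4272514, GRCm38). In 12-month KO retina its 3 libraries held 1.88, 2.62 and 2.0 CPM, from 57, 78 and 59 counts. In 12-month control retina they held 0.768, 0.706 and 1.11 CPM, from 23, 21 and 33 counts. Every 12-month KO library was thus above every control library of that age. At 3 months the controls held 0.612, 0.804 and 1.10 CPM and the KO libraries 0.877, 1.06 and 0.744, and these groups overlapped. The group means were 0.840 ± 0.248 and 0.895 ± 0.160 CPM at 3 months and 0.863 ± 0.220 and 2.17 ± 0.397 at 12 months, control before KO (SD, n = 3 each).

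At 12 months the difference in Lif was 1.33 ± 0.32 (log2, SE), a 2.51-fold difference with a 95% interval from 1.59 to 3.96. Its unadjusted p in edgeR was 0.00045, rank 72 of 16475, and its adjusted p was 0.10, so it was not called. DESeq2 and limma-voom, run on the same counts, did call it, with adjusted p = 0.033 and 0.020. In the authors' deposited table its shrunken log2 fold change was 0.31, with adjusted p = 0.055 and rank 113 by p. At 3 months the difference was 0.09, with a 95% interval from -0.61 to 0.79 and edgeR adjusted p = 0.95. The difference between the KO effects at the 2 ages was 1.24 ± 0.46 (log2, SE), with unadjusted p = 0.014 and edgeR adjusted p = 0.999.

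Between 3 and 12 months Lif rose in KO retina, by 1.27 ± 0.31 on the log2 scale (2.42-fold, edgeR adjusted p = 0.033). In control retina the same change was 0.04, with a 95% interval from -0.67 to 0.74 (edgeR adjusted p = 0.98). The comparison with age in KO retina and the one with controls at 12 months share the 12-month KO libraries, so they are not independent. The rise with age lost its call when any 1 of KO replicates 1, 2 or 3 at 3 months, or KO replicate 2 or 3 at 12 months, was left out, with edgeR adjusted p from 0.072 to 0.17. Without KO replicate 1 at 12 months, the library that stood apart, it was 1.37 with adjusted p = 0.047. Summed levels of microglia markers also lay higher with age: they were 50.8 to 51.4 CPM at 3 months and 64.7 to 70.1 at 12 months in KO retina, and 46.9 to 48.2 and 62.4 to 64.2 in control retina. Of 10 markers 9 were tested, and edgeR called 2 higher with age in KO and 1 in control retina. Their part in the age differences of Lif and of the other genes was not tested.

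**Figure D2:**
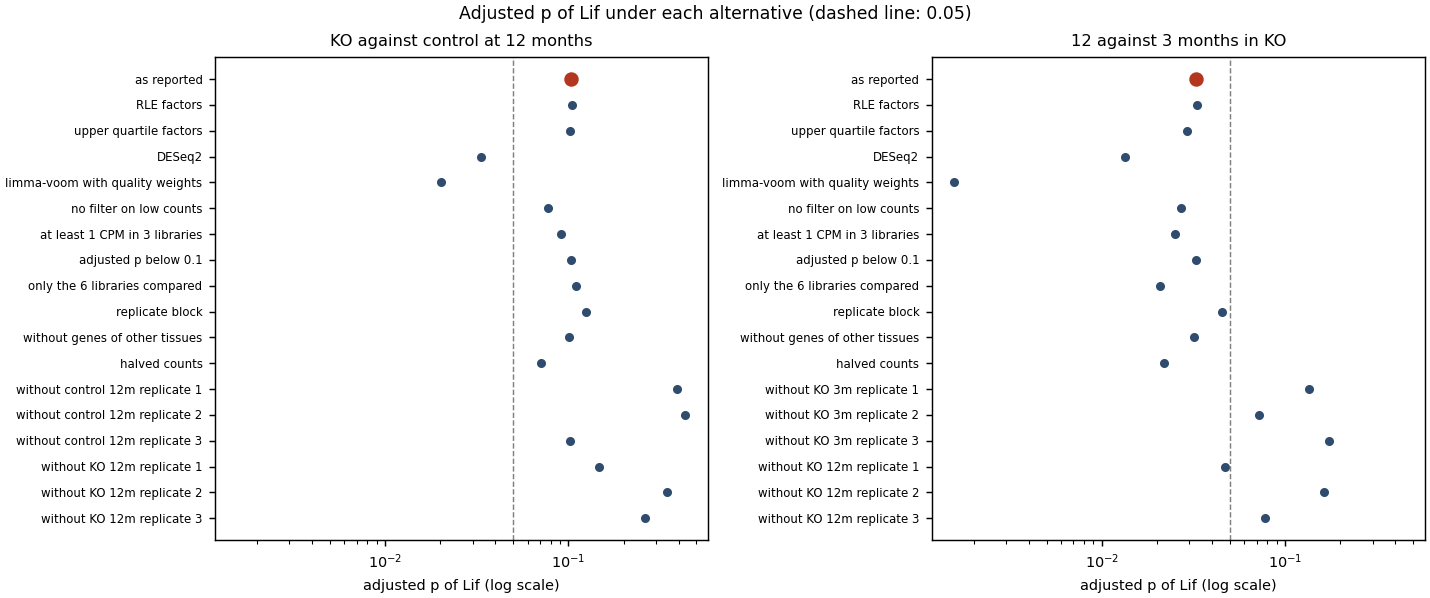
Adjusted p of Lif (x axis, log scale) for KO against control at 12 months and for 12 against 3 months in KO retina, with 1 line for each way of processing the counts. The red point is the value as reported and the dashed line is 0.05; at 12 months only DESeq2 and limma-voom lie to its left, and with age the points to its right are 5 that leave out 1 library.

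Other measurements moved with the same 3 libraries. Xist, the RNA of the inactive X chromosome, stood at 52.3 to 85.5 CPM in 12-month KO retina and at 0.0686 to 0.609 in the other 3 groups. The Y-linked genes Ddx3y, Eif2s3y, Kdm5d and Uty together gave 126 to 151 CPM in 12-month KO retina and 119 to 135 in 12-month control retina. The Xist difference and the KO at 12 months cannot be told apart in these libraries. The number of genes with a count was 18887 to 19144 in the 12-month KO libraries and 18541 to 18725 elsewhere. Markers of microglia summed to 64.7 to 70.1 CPM in 12-month KO retina and 62.4 to 64.2 in its control, those of astrocytes to 40.8 to 42.2 and 37.2 to 40.2, and those of Müller glia to 4601 to 4652 and 4703 to 4860. Bipolar cell markers summed to 1756 to 1886 and 2028 to 2075 CPM, ganglion cell markers to 901 to 949 and 981 to 1028, and amacrine and horizontal cell markers to 1210 to 1220 and 1247 to 1280, in the same order. Surface epithelium markers, at low counts, summed to 3.60 to 6.63 CPM in 12-month KO retina and 1.52 to 2.12 in its control, against 2.47 to 6.24 in the 3-month groups. Each of these marker sums differed without overlap at 12 months, while those of the Y-linked genes overlapped. The 3-month libraries ran from 36.3 to 51.7 CPM for astrocytes and from 4456 to 5041 for Müller glia. These ranges covered the 12-month KO values. The sums of the other marker lists overlapped at that age. They were those of rods, cones, endothelium, pericytes and smooth muscle, pigment epithelium, lens, skeletal muscle, Schwann cells and oligodendrocytes, and blood. The part of the differences above in the Lif result was not tested.

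Clcf1 encodes a ligand of the CNTF receptor (Entrez 56708, chr19:4214238-4223505). It stood at 2.94, 2.66 and 3.40 CPM in 12-month KO retina and at 3.27, 3.06 and 4.29 in its control. The groups overlapped, and the difference was -0.24 with a 95% interval from -0.65 to 0.17 (edgeR adjusted p = 0.76). At 3 months the means were 3.36 ± 0.399 CPM in control and 3.17 ± 0.207 in KO retina (SD, n = 3 each). Clcf1 shares its strand and part of its span with the GENCODE model AC109138.7, so its counts may be affected by how shared reads were assigned.

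Cntf encodes ciliary neurotrophic factor (Entrez 12803, chr19:12763528-12765632). It had 35 counts over all 12 libraries: 6, 0 and 2 in 3-month control, 2, 4 and 4 in 3-month KO, 2, 1 and 5 in 12-month control, and 0, 3 and 6 in 12-month KO retina. No difference was tested at these counts, and no fold is given. Cntf lies inside the RefSeq read-through gene Gm44505, which is listed at 0 in all 12 libraries, and overlaps the GENCODE model of Zfp91, which had 981 to 2035 counts. A read shared by overlapping genes can be left uncounted, and their treatment is not stated in the labels or notes. The level of Cntf is therefore uncertain.

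Il6st encodes gp130, the chain shared by the receptors of LIF, CNTF and oncostatin M (Entrez 16195, chr13:112464070-112506860). It stood at 65.6, 79.4 and 83.5 CPM in 12-month KO retina and at 68.4, 84.9 and 76.2 in its control. The ranges covered each other almost fully, and the difference was -0.01 with a 95% interval from -0.19 to 0.18 (edgeR adjusted p = 0.99), which is 0.875-fold to 1.13-fold. At 3 months the means were 76.7 ± 2.18 CPM in control and 75.8 ± 0.306 in KO retina (SD, n = 3 each).

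Lifr encodes the chain that binds LIF (Entrez 16880, chr15:7090610-7197489). It stood at 59.4, 55.7 and 66.7 CPM in 12-month KO retina and at 54.2, 61.0 and 64.6 in its control. These groups overlapped, and the difference was 0.02 with a 95% interval from -0.18 to 0.21 (edgeR adjusted p = 0.98). The 3-month means were 58.9 ± 6.93 and 59.1 ± 1.27 CPM, control before KO (SD, n = 3 each). The direction of Lifr and Il6st differed between scalings and tests, as their differences lay near 0.

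Osmr encodes the oncostatin M chain (Entrez 18414, chr15:6813568-6874968). It stood at 4.79, 4.16 and 3.88 CPM in 3-month control and 5.11, 5.01 and 6.75 in 12-month control retina. In KO retina it stood at 4.72, 4.25 and 4.84 CPM at 3 months and 5.25, 6.26 and 5.91 at 12 months. All 12-month libraries were above all 3-month libraries, in both genotypes. The age differences were 0.39 in control and 0.33 in KO retina (log2, edgeR adjusted p = 0.31 and 0.40), and neither was called. The 12-month KO difference was 0.05, with a 95% interval from -0.29 to 0.39 (edgeR adjusted p = 0.96).

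Cntfr encodes the chain that binds CNTF and CLCF1 (Entrez 12804, chr4:41657498-41697091). Its means were 143 ± 9.62 and 138 ± 3.35 CPM at 3 months and 159 ± 1.37 and 153 ± 11.6 at 12 months, control before KO (SD, n = 3 each). The 12-month libraries were above the 3-month libraries of the same genotype, and the age differences of 0.16 in control and 0.14 in KO retina were not called (log2, edgeR adjusted p = 0.37 and 0.41). At 12 months KO retina differed from control by -0.06, with a 95% interval from -0.21 to 0.09 (edgeR adjusted p = 0.83).

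Jak1 encodes the kinase bound to gp130 (Entrez 16451, chr4:101151974-101265282). In KO retina it stood at 120.8, 116.2 and 116.2 CPM at 3 months and at 131.3, 149.9 and 153.2 at 12 months. In control retina it stood at 119.9, 108.7 and 114.5 CPM at 3 months and at 135.5, 139.3 and 138.2 at 12 months. In both genotypes every 12-month library was above every 3-month library. Jak1 rose with age in KO retina, by 0.30 ± 0.072 (log2, SE; 1.23-fold; edgeR adjusted p = 0.028). In control retina the difference of 0.27 ± 0.072 was not called by edgeR (adjusted p = 0.061) and was called by DESeq2 and limma-voom. These 2 age differences were not shown to differ: their difference was 0.03, with a 95% interval from -0.18 to 0.24 (edgeR adjusted p = 0.999). The call in KO retina was lost without any 1 of the 5 libraries whose loss also ended the call of Lif, with adjusted p from 0.094 to 0.14. At 12 months KO and control retina differed by 0.07, with a 95% interval from -0.08 to 0.22 (edgeR adjusted p = 0.80). Raver2 overlaps the end of Jak1 on the opposite strand, and the strand setting of the counting is not given in the sources used here.

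Stat3 encodes the transcription factor at the end of the pathway (Entrez 20848, chr11:100886806-100939594). It stood at 94.3, 97.8 and 93.4 CPM in 12-month KO retina and at 79.6, 87.9 and 87.2 in 12-month control retina. The 12-month KO libraries were above the controls without overlap, and by a small margin. The difference was 0.16 on the log2 scale, or 1.12-fold, with a 95% interval from 0.0035 to 0.33 and an unadjusted p of 0.046 in edgeR, and it was not called (edgeR adjusted p = 0.57). In the authors' deposited table its shrunken log2 fold change was 0.14, with adjusted p = 0.60. At 3 months it stood at 71.5, 85.6 and 74.9 CPM in control and 76.6, 79.2 and 84.6 in KO retina. The age difference was 0.13 in control and 0.25 in KO retina (log2, edgeR adjusted p = 0.53 and 0.11). The latter was called by limma-voom (adjusted p = 0.0033) and when only the 6 KO libraries were fitted (0.046).

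Socs3 encodes the inhibitor that STAT3 is known to induce (Entrez 12702, chr11:117966079-117970336). It stood at 7.73, 7.94 and 6.32 CPM in 12-month KO retina and at 7.45, 9.18 and 6.38 in its control. The groups overlapped, and the difference was -0.07 with a 95% interval from -0.40 to 0.27 (edgeR adjusted p = 0.93). A fold as large as that of Lif lies outside this interval, and whether Socs3 responded to Lif was not tested. In the authors' deposited table the shrunken log2 fold change of Socs3 was -0.04, with adjusted p = 0.98. The 3-month means were 7.16 ± 0.869 CPM in control and 7.12 ± 0.762 in KO retina (SD, n = 3 each).

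**Figure D3:**
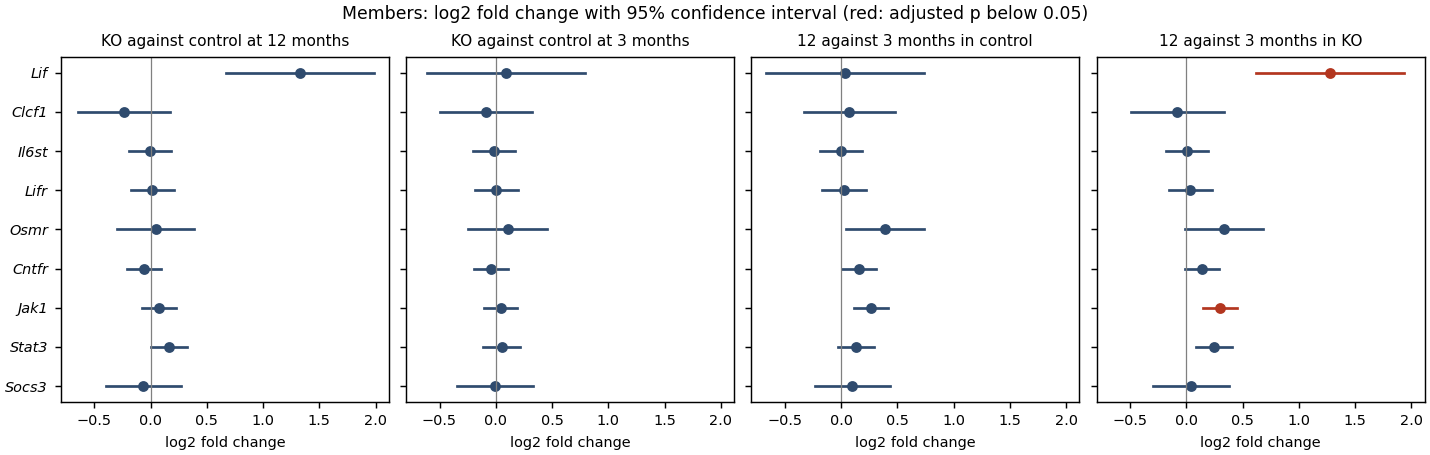
Log2 fold change (x axis) of the 9 tested members in 4 comparisons, with 95% confidence intervals from edgeR as lines. Red marks an adjusted p below 0.05, which only Lif and Jak1 reached, both for 12 against 3 months in KO retina (1.27 and 0.30).

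Counted together, 0 of the 9 tested members were called for KO against control at 12 months, where 0.212% of all tested genes were called; 2 members, Lif and Stat3, had an unadjusted p below 0.05, and DESeq2 and limma-voom called 1 each, Lif. The groups did not overlap for those 2 members, against 16.6% of all tested genes. Over all genes, DESeq2 called 128 of 17987 in this comparison and limma-voom 186 of 16475. At 3 months 0 of 9 were called by edgeR, DESeq2 or limma-voom and 0 had an unadjusted p below 0.05, where 0.225% of all genes were called, and for 0 members the groups did not overlap, against 15.6% of all genes. With age in control retina edgeR called 0 of 9, where 2.11% of all genes were called; 3 members, Osmr, Cntfr and Jak1, had an unadjusted p below 0.05 and groups that did not overlap, against 17.5% of all genes. DESeq2 called 1 of them, Jak1, and limma-voom called 2, Cntfr and Jak1. Over all genes these methods called 574 of 17571 and 773 of 16475, in that order.

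With age in KO retina 2 of 9 were called, Lif and Jak1, where 2.37% of all genes were called. For 5 members, Lif, Osmr, Cntfr, Jak1 and Stat3, the groups did not overlap, against 22.2% of all genes. For the difference of KO effects between ages 0 of 9 were called by edgeR, DESeq2 or limma-voom, where edgeR called 0.127% of all genes, and 1 member, Lif, had an unadjusted p below 0.05. The median log2 fold change of the 9 was 0.02 at 12 months and 0.00 at 3 months for KO against control, and 0.10 in control and 0.14 in KO retina with age. Over all tested genes each of these 4 medians was 0.00.

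Between genes, levels can be compared only per length, here CPM per kilobase of exon averaged over the 12 libraries. The receptor Cntfr led with 53.3 (48.6 to 59.4 over libraries), followed by Jak1 with 17.8 (15.0 to 21.2). Stat3 had 8.86, Il6st 6.88 and Lifr 5.53 CPM per kilobase, and Socs3 had 2.53. The ligand Clcf1 had 0.858, the receptor Osmr 0.419, Lif 0.274 (0.141 to 0.603) and Cntf 0.0920. The ranges over libraries overlapped for Stat3 and Il6st, Il6st and Lifr, Osmr and Lif, and Lif and Cntf, so the order of those neighbours does not hold in every pair of libraries. The ranges of the other neighbours did not overlap. Lif reached the range of Osmr only in its 12-month KO libraries.

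Of 13 further ligands and receptors of the gp130 family, 5 passed the filter, and none was called by edgeR, DESeq2 or limma-voom in any of the 5 comparisons. With an unadjusted p below 0.05 there was 1 gene at 12 months (Ctf1) and 1 in each comparison of ages, and 0 in the other comparisons. The median log2 fold change at 12 months was -0.06. The ligand Ctf1, cardiotrophin 1, stood at 6.61, 5.01 and 4.65 CPM in 12-month KO retina and at 3.61, 2.96 and 4.42 in its control. These groups did not overlap, with a difference of 0.57 and edgeR adjusted p = 0.44. Il11ra1, the receptor of interleukin 11, stood at 27.7 ± 1.81 and 27.4 ± 2.99 CPM (SD, n = 3 each), with a difference of 0.01 (edgeR adjusted p = 0.98). The ligand genes Il6, Il11, Osm, Ctf2 and Il27 were among the 8 that did not pass the filter.

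Of 24 other kinases, STATs and feedback regulators, 23 were tested, and none was called for KO against control at either age by edgeR, DESeq2 or limma-voom. The count with an unadjusted p below 0.05 was 3 at each age, and the medians were -0.07 at 12 months and 0.02 at 3 months. At 12 months 5 of the 23 lay above 0, and for 7 the groups did not overlap, against 16.6% of all genes. Among these 7, Cish stood at 7.70 to 9.51 CPM in KO and 10.8 to 12.7 in control retina. At 12 months Socs7, a SOCS family member, differed by -0.14 and Pias3, an inhibitor of STAT3, by -0.02 (edgeR adjusted p = 0.69 and 0.96), and at 3 months by 0.05 and 0.04 (0.89 and 0.89). Jak3 encodes a kinase used chiefly by immune cytokine receptors. With age in KO retina it rose by 0.55 (edgeR adjusted p = 0.018), from 7.15 ± 0.684 to 10.5 ± 0.282 CPM (SD, n = 3 each). In control retina Jak3 stood at 9.41 ± 0.694 CPM at 3 months and 9.22 ± 0.409 at 12 months. The 3-month KO libraries, at 6.48 to 7.85 CPM, lay below all control libraries of that age (8.61 to 9.85). In KO retina Pias3 fell with age by 0.27 on the log2 scale (edgeR adjusted p = 0.039), from 202 ± 5.16 to 167 ± 6.87 CPM. Its control levels were alike, at 197 ± 6.22 CPM at 3 months and 169 ± 12.0 at 12 months, without a call in edgeR. With age in KO retina 2.37% of all tested genes were called. The call of Jak3 was lost without KO replicate 1 or 2 at 3 months or 2 or 3 at 12 months (adjusted p from 0.055 to 0.12), and that of Pias3 without any 1 library other than KO replicate 1 at 12 months (0.11 to 0.23), under upper quartile factors (0.073) or with no filter (0.054). The microglia marker sums given beside Lif lay higher at 12 months in both genotypes, and their part in the Jak3 result was not tested. In control retina the list had 0 calls with age in edgeR, 3 genes with an unadjusted p below 0.05, 1 call in DESeq2 and 2 in limma-voom. Over all tested genes the calls numbered 347 in edgeR, 574 in DESeq2 and 773 in limma-voom.

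Of 24 known STAT3 target genes, all were tested, and edgeR called 1 at 12 months, where 0.212% of all tested genes were called. This was Serpina3n, a secreted protease inhibitor known as a marker of reactive glia. It stood at 13.1, 8.88 and 10.5 CPM in 12-month KO retina and at 4.67, 5.08 and 7.66 in its control, so the groups did not overlap. The rise was 0.90, or 1.86-fold (edgeR adjusted p = 0.046), and it lost its call without KO replicate 1 or 3 or control replicate 1 or 2 at 12 months (adjusted p from 0.12 to 0.30), or when only the 6 libraries of that age were fitted (0.090). At 3 months it stood lower in KO than in control retina, at 4.71 ± 0.493 against 7.35 ± 0.840 CPM (SD, n = 3 each), with a log2 difference of -0.64 that was not called (edgeR adjusted p = 0.49). The 2 KO effects differed by 1.54 ± 0.26 (log2, SE; edgeR adjusted p = 0.013). In the authors' deposited table the shrunken log2 fold change of Serpina3n at 12 months was 0.44, with adjusted p = 0.0062.

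The list as a whole had 14 of 24 genes above 0 at 12 months and a median of 0.06. Of the 24, 7 had an unadjusted p below 0.05 in edgeR, and 8 had groups that did not overlap, against 16.6% of all genes. Nfil3 and Il4ra were lower in KO retina without overlap and were not called. Nfil3 stood at 24.7 to 27.6 CPM against 33.0 to 36.5 in control retina, and Il4ra at 9.07 to 9.92 against 10.6 to 10.8. Gfap, the filament protein that glia raise when reactive, stood at 15.9, 14.7 and 15.0 CPM in 12-month KO retina and at 11.6, 12.7 and 12.6 in its control. These did not overlap, yet its difference of 0.31 was not called (edgeR adjusted p = 0.50), and the 3-month controls held 14.3 to 18.9 CPM. At 3 months 0 of 24 were called by edgeR, DESeq2 or limma-voom, 4 had an unadjusted p below 0.05, and the median was -0.11. Hif1a, a hypoxia factor, and Vegfa, a vascular growth factor, then differed by 0.20 and 0.00 (edgeR adjusted p = 0.67 and 0.99).

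With age in control retina 4 of the 24 targets rose and 1 fell in edgeR, where 2.11% of all tested genes were called. The transcription factor genes Junb, Nfil3 and Fos rose by 0.76, 0.52 and 0.43 on the log2 scale, and Ccnd1, a cyclin, by 0.42 (edgeR adjusted p = 3.62e-05, 0.0016, 0.0036 and 0.0093). Cebpd, a transcription factor of the acute phase response, fell by 0.77 (adjusted p = 0.013). The calls of Ccnd1 and Cebpd were each lost without some single libraries (adjusted p up to 0.067 and 0.066). For Ccnd1 these were control replicate 1 at 3 months and 2 and 3 at 12 months, and for Cebpd control replicate 3 at 3 months and each at 12 months. Ccnd1 also lost its call when only the 6 control libraries were fitted (adjusted p = 0.086). In KO retina 5 of the 24 rose with age and none fell, where 2.37% of all tested genes were called. Junb rose by 0.69, A2m, a protease inhibitor of the acute phase, by 0.98, Serpina3n by 1.20 and Fos by 0.36 (edgeR adjusted p = 0.00014, 0.00017, 0.00078 and 0.015). Icam1, an adhesion molecule and the fifth by p, rose by 1.88 (edgeR adjusted p = 0.016), from 0.677 to 0.823 CPM at 3 months to 2.04 to 3.14 at 12 months. Its call was lost without any 1 of the 3-month KO libraries or KO replicate 1 or 2 at 12 months (adjusted p from 0.058 to 0.10). The call of Fos in KO retina was lost without any 1 of the 3-month KO libraries or KO replicate 3 at 12 months (adjusted p from 0.055 to 0.096). Whether the targets other than Serpina3n changed differently with age in the 2 genotypes was not shown: in edgeR none of them was called for the difference of KO effects.

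**Figure D4:**
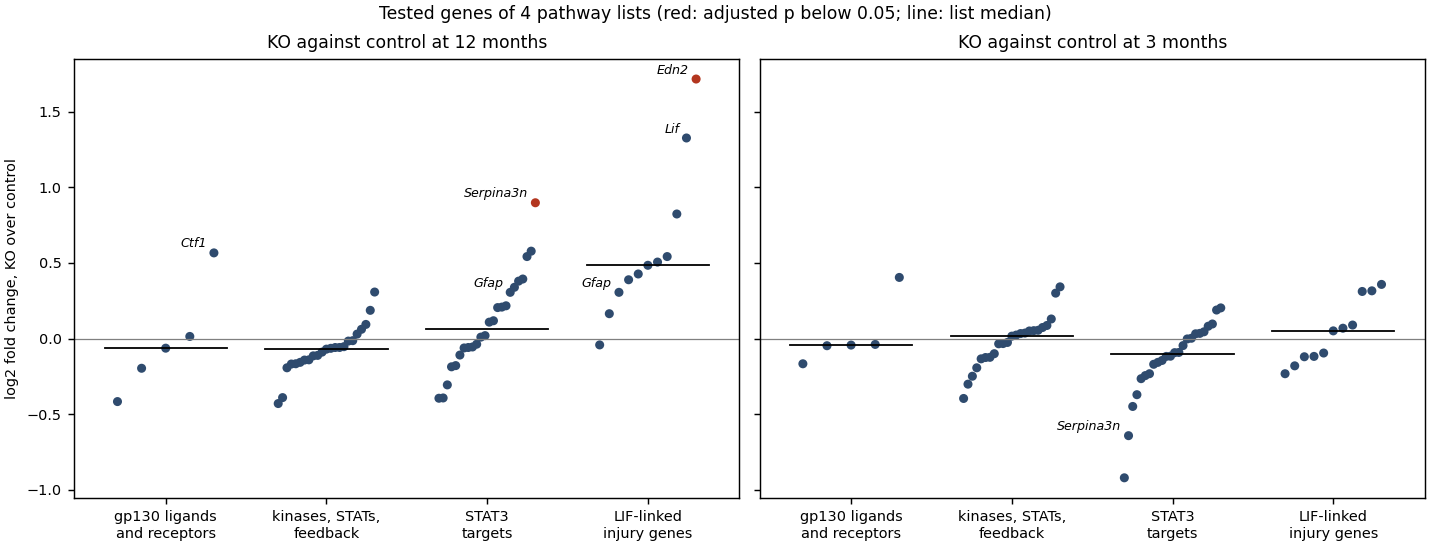
Log2 fold change of KO over control (y axis) for each tested gene of 4 lists, at 12 and at 3 months. Points are genes, ordered by value within a list, horizontal lines are list medians and red marks an adjusted p below 0.05; at 12 months Edn2 (1.72) and Serpina3n (0.90) are red, and at 3 months no gene is.

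The 11 genes linked to LIF in photoreceptor injury had the highest list median at 12 months, 0.48, with 10 of 11 above 0 and 9 without overlap between groups, against 16.6% of all genes. Lif and Stat3 are themselves on this list, and Gfap and Cebpd are also on the list of targets. The list was written with earlier results of these data known, so its direction is no independent evidence. Only Edn2, which encodes endothelin 2, a peptide that injured photoreceptors make, was called by edgeR. DESeq2 called 3 of the 11 and limma-voom 4. Over all tested genes, DESeq2 called 128 of 17987 and limma-voom 186 of 16475, against 35 in edgeR.

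Edn2 stood at 15.8, 10.1 and 9.98 CPM in 12-month KO retina and at 3.81, 3.53 and 3.58 in its control. Every 12-month KO library was far above the other 9, which held 3.53 to 5.83 CPM, and KO replicate 1 was the highest. The rise was 1.72, or 3.29-fold with a 95% interval from 2.52 to 4.29 (edgeR adjusted p = 6.43e-05). Without KO replicate 1, the library that stood apart, it was 1.47 (edgeR adjusted p = 0.00027). At 3 months the difference was -0.18 (edgeR adjusted p = 0.79), and the 2 KO effects differed by 1.90 ± 0.26 (log2, SE; edgeR adjusted p = 0.0013). In the authors' deposited table the shrunken log2 fold change of Edn2 at 12 months was 0.85, with adjusted p = 3.71e-13.

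The other genes of this list that lay higher at 12 months were not called in edgeR. Mt2, a metallothionein, differed by 0.82 (adjusted p = 0.082) and Cebpd by 0.54 (0.28). Bdnf, a neurotrophin, differed by 0.51 (0.29) and Fgf2, a growth factor of injured retina, by 0.48 (0.59). Cebpd stood at 20.9 CPM in KO replicate 1, the library that stood apart, and at 11.7 and 13.2 in replicates 2 and 3. The 12-month KO means of Cebpd and Bdnf (15.3 and 6.63 CPM) were below their 3-month means in both genotypes, and those of Mt2 and Fgf2 were above. With age in control retina Bdnf fell by 0.88 on the log2 scale (edgeR adjusted p = 0.0022), as did Cebpd, above. With age in KO retina Edn2 rose by 1.42 (edgeR adjusted p = 8.68e-05), beside Lif. At 3 months edgeR, DESeq2 and limma-voom called 0 of the 11, 1 had an unadjusted p below 0.05, and the median was 0.05. Fgfr1, a receptor of FGF2, then differed by -0.12 (edgeR adjusted p = 0.74).

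**Figure D5:**
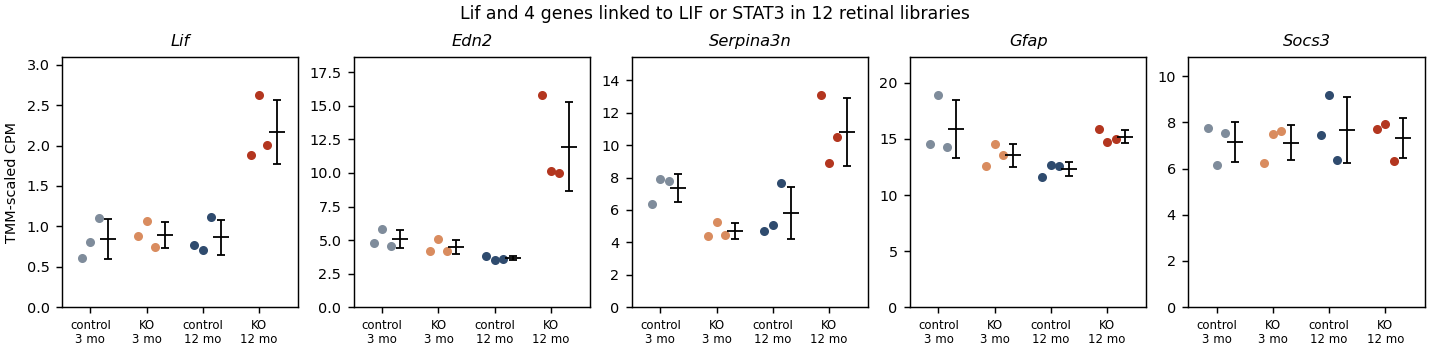
Level of Lif, Edn2, Serpina3n, Gfap and Socs3 in every library, in CPM after TMM scaling (y axis, a separate linear scale from 0 in each panel), with group means ± SD beside the 3 points of a group. The 12-month KO points of Lif, Edn2 and Serpina3n lie above all other groups, those of Gfap (14.7 to 15.9) lie within the range of the 3-month controls, and those of Socs3 overlap every group.

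By Pearson correlation of log2 CPM over the 12 libraries, the 5 genes of 14077 most like Lif were Hcls1 (r = 0.89), an adaptor protein of blood cells, Xist (0.88), Gsto1 (0.87), a glutathione transferase, Nr2e3 (0.86), a transcription factor of rods, and Klf11 (0.85). Spearman's rho for these ran from 0.51 to 0.81. With the group means removed these correlations were 0.39, -0.31, 0.35, 0.43 and 0.52. The likeness of the 5 to Lif therefore lay mostly between groups and less within them. The 5 genes most like Socs3 were Pih1d2 (r = 0.91), Ilf2 (0.79), Irgm1 (0.79), an interferon-induced GTPase, Ttyh1 (0.79), a chloride channel, and Chp1 (0.77), with rho from 0.62 to 0.90. With the group means removed these were 0.94, 0.83, 0.88, 0.78 and 0.85, so the likeness to Socs3 lay within groups, between libraries. These values are descriptions over 12 points that share groups and, within each library, depth and makeup.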

How the data were processed

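Poly(A) RNA of whole retina was made into stranded TruSeq libraries and sequenced on an Illumina NovaSeq, per the labels' protocols. The submitters' processing notes name HISAT2 2.1.0, featureCounts 1.6.4 and the build GRCm38, without settings. The authors deposited raw counts for 27179 Entrez gene IDs per library, of which 25275 were named from RefSeq. Low counts were mostly even (60.7% to 70.2% of those from 1 to 20), which would follow if both reads of a fragment were counted; a low count may then hold fewer fragments than its value.

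The authors also deposited a 12-month table without a header, read by column order as DESeq2 1.22.1 output: a signal column (mean normalized count), a log2 fold change, its standard error, a Wald score, a p-value and an adjusted p-value. Its log2 values appear shrunken, so their size cannot be set directly against the edgeR values. It is quoted only where named.

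Counts were filtered with filterByExpr (16475 genes left), scaled by TMM and fitted with edgeR 4.0.16 in R 4.3.3 (robust quasi-likelihood, 1 coefficient per group, all 12 libraries, biological coefficient of variation 0.110). Log2 CPM used a prior count of 2. Kilobases are union exon lengths from GENCODE M21; gene spans are RefSeq's. The model was checked on simulated data. Alternatives were RLE and upper quartile factors, DESeq2 1.42.0, limma-voom (limma 3.58.1) with quality weights, a threshold of 0.1, no filter, a filter of 1 CPM in 3 libraries, a replicate block, fits to the 6 libraries compared, library sizes without genes of other tissues, and each library left out; halved counts were chosen after seeing the data.

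The members and lists were chosen with earlier results of these data known. All members are named; from each list the called genes are named, at most 4 by adjusted p, or, where none was called, the 2 with the highest mean CPM, not per length. The 5 genes most like Lif and Socs3 needed a symbol and a mean of 1 CPM. Ctf1, Gfap, Mt2, Cebpd, Bdnf and Fgf2 at 12 months, all higher in KO retina, were named after their values were seen. So were Nfil3, Il4ra and Cish, lower in KO retina at that age. Icam1, Xist, the Y-linked genes, Zfp91 and Gm44505 were also named after their values were seen. Replicate numbers showed no clear pairing of the libraries.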

Additional observations from a re-analysis of the deposited data

Results flagged for a closer look

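Edn2 had KO effects that differed between ages by the interaction term of the edgeR model: the 12-month effect exceeded the 3-month effect by 1.90 on the log2 scale (adjusted p = 0.0013), and it was called under all 22 alternatives (adjusted p up to 0.010).

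Serpina3n also had KO effects that differed between ages, by 1.54 on the log2 scale (edgeR adjusted p = 0.013). For Edn2 and Serpina3n alike this difference uses the 3-month controls, which held more lens and skeletal muscle markers. The part of these markers in it was not tested. Without control replicate 1 or 2 at 12 months, KO replicate 1 or 3 at 3 months, or KO replicate 1 at 12 months the adjusted p was 0.051 to 0.071.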

How the results depend on the processing

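Lif kept its direction at 12 months under all 17 alternatives, from 1.17 to 1.55, with adjusted p from 0.020 to 0.44; only DESeq2 and limma-voom called it. The number of members called at 12 months was 1 under DESeq2 and 1 under limma-voom. With age in control retina it was 1 under DESeq2, 2 under limma-voom and 1 at a threshold of 0.1. With age in KO retina it ran from 0 to 2 when 1 library was left out, 3 under limma-voom and 3 with only the 6 libraries compared. Over all genes, calls at 12 months numbered 35 as reported, 128 under DESeq2, 186 under limma-voom, 64 without a filter and 66 at a threshold of 0.1. With age in KO retina they numbered 390 as reported, 592 under DESeq2 and 1319 under limma-voom.

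The replicate numbers showed no clear pairing: same-numbered libraries of different groups correlated at -0.082 to 0.14, 1 of 18 pairs above 0.1. Differently numbered libraries correlated at -0.11 to 0.089, with 0 of 36 pairs above 0.1. With the replicate block the 12-month value of Lif was 1.33 (adjusted p = 0.12), and 0 members were called at 12 months and 2 with age in KO retina, as without it. Of the named genes, Serpina3n at 12 months (adjusted p = 0.055) and Pias3 with age in KO retina (0.063) lost their calls.

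Reversed signs were all of members that were not called. The 12-month effect was 0.0022 under upper quartile factors and 0.048 under limma-voom for Il6st, and -0.025 under limma-voom for Lifr. The 3-month effect of Lifr was -0.0070 under upper quartile factors, -0.069 under limma-voom, -0.00056 without a filter, -0.00099 with at least 1 CPM and -0.00060 with halved counts, and that of Il6st 0.0027 under limma-voom. Under limma-voom the age difference in control retina was -0.036 for Lifr, 0.018 for Il6st and -0.011 for Socs3. For the difference of KO effects Cntfr gave 0.0078 under upper quartile factors and Socs3 0.078 under limma-voom.

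When 1 library was left out, 59 member values changed sign, none of them called; the cause was not tested. The 12-month KO effect ran from -0.0583 to 0.0729 for Lifr, from -0.0809 to 0.0899 for Il6st, from -0.0302 to 0.20 for Osmr and from -0.18 to 0.0845 for Socs3. The 3-month KO effect ran from -0.0935 to 0.33 for Lif, from -0.0896 to 0.0619 for Lifr, from -0.0382 to 0.00247 for Il6st, from -0.0827 to 0.00958 for Cntfr, from -0.17 to 3.26e-05 for Clcf1, from -0.00307 to 0.13 for Stat3 and from -0.10 to 0.0782 for Socs3. The age difference in control retina ran from -0.19 to 0.28 for Lif, from -0.0696 to 0.0926 for Lifr, from -0.0846 to 0.0709 for Il6st, from -0.0875 to 0.17 for Clcf1 and from -0.0509 to 0.22 for Socs3. The age difference in KO retina ran from -0.038 to 0.0925 for Lifr, from -0.0646 to 0.10 for Il6st and from -0.045 to 0.14 for Socs3. The difference of KO effects ran from -0.0633 to 0.11 for Lifr, from -0.0649 to 0.11 for Il6st, from -0.15 to 0.0912 for Osmr, from -0.0745 to 0.0336 for Cntfr, from -0.25 to 0.00687 for Clcf1, from -0.0113 to 0.10 for Jak1 and from -0.17 to 0.0923 for Socs3.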
